A study of Mus musculus with 3 samples.

Results

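The comparison sets the RNA-seq library of mouse embryonic stem cells carrying introduced Lef1 at passage 5 (Lef1 P5) against the library of the same construct at passage 2 (Lef1 P2), which are 2 of the 3 libraries of the study. The libraries were taken by their labels, and each side has n = 1 library, so genes are compared by size, without tests or p-values. Both cultures were 46C embryonic stem cells of strain 129, grown with serum and the cytokine LIF on gelatin, and the passages count from when the gene (label: PB-Lef1) was brought in. The third library, empty vector P2, came from the same line given the vector alone (label: PB) and collected at passage 2. It is quoted only as the level without introduced Lef1, called the untreated level below, and enters no ratio. These cells did carry the vector, so the untreated level is not that of unmanipulated cells. Since the empty-vector cells were read at passage 2 only in the files used here, a change with passage of any 46C culture and a change particular to Lef1 cultures cannot be told apart. The labels do not say whether the cultures were clones or mixed populations, nor whether Lef1 P5 descends from the culture sampled as Lef1 P2.

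Lef1 is a DNA-binding protein that joins beta-catenin at Wnt target genes, where the pair activates transcription. Embryonic stem cells kept with LIF hold the transcription programme of the early epiblast, with Pou5f1, Sox2 and Nanog at its centre. Their usual alternative at this stage is extraembryonic endoderm, which is specified by Gata6, Gata4 and Sox17 and matures into parietal endoderm, which lays down a thick basement membrane, or visceral endoderm, which takes up maternal nutrients through receptors such as cubilin. D-type and E-type cyclins drive entry into S phase, and mouse embryonic stem cells hold high levels of cyclin E.

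The 4 genes taken as markers of this comparison were chosen with earlier results of these data known. That they separated the libraries in both directions is therefore a description and not an independent finding. Cubn, which encodes the endocytic receptor cubilin, and Pth1r, the receptor of parathyroid hormone-related protein and a marker of parietal endoderm, were lower at passage 5. The cyclin genes Ccnd1 and Ccne1 were higher. Promoter windows of Cubn and Ccne1 are printed to show a lower and a higher marker, and that of Col4a1 because collagen IV is described further on and its start lies close to that of Col4a2. Each window runs from 250 bases before to 50 bases after the start, 5′ to 3′ on the gene's strand, from RefSeq on GRCm38.p6. Capitals mark the TCF/LEF letters CTTTGA or their reverse complement. The windows are Cubn at chr2:13491827-13492126 (minus strand), Ccne1 at chr7:38107441-38107740 (minus strand) and Col4a1 at chr8:11312777-11313076 (minus strand).
Cubn: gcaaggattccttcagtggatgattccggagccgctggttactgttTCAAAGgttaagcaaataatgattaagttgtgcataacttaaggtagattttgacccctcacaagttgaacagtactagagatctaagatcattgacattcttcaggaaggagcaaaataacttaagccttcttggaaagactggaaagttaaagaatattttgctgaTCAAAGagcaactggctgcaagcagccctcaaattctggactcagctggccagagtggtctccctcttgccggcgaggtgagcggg
Ccne1: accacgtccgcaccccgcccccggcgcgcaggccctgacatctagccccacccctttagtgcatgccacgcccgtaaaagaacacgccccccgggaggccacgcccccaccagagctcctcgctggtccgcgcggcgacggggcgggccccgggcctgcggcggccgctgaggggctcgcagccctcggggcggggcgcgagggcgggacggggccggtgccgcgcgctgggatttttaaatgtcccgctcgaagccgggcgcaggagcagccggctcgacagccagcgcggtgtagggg
Col4a1: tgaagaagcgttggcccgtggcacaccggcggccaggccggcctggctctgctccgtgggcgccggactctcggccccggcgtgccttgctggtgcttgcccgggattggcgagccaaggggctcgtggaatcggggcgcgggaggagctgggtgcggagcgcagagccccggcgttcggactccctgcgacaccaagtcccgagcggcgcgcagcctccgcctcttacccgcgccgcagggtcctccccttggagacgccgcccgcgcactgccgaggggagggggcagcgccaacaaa
The Cubn window held the TCF/LEF letters at 2 places, both as TCAAAG, and the windows of Ccne1, Col4a1, Col4a2 and Pth1r held none on either strand. None of these windows held the GATA letters AGATAA on either strand. Matches of these motifs can share at most 2 end letters. The GC content was 44.3% in the Cubn window, 76.0% in that of Ccne1 and 74.0% in that of Col4a1. The windows of Col4a1 and Col4a2 (chr8:11312555-11312854, plus strand) overlap, since these genes start back to back on opposite strands. The table used here had 3 windows for Pth1r and none for Ccnd1.

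Cubn was at 33.0 FPKM (fragments per kilobase, normalised to library size; 95% interval 31.9 to 34.1) at passage 2 and at 2.53 FPKM (2.24 to 2.85) at passage 5, beside 2.68 FPKM in empty vector P2. Its level at passage 5 was 13.0-fold lower and lay at the untreated level. Intervals are exact Poisson intervals of the read counts and cover counting error only. They leave out the difference between cultures, and PCR copies counted without molecular identifiers are not separate molecules. Pth1r was at 23.4 FPKM (21.4 to 25.6) at passage 2 and 2.56 FPKM (1.92 to 3.35) at passage 5, with 1.09 FPKM in empty vector P2, which is 9.15-fold lower at passage 5. The gene of its ligand, Pthlh, had no row in the tables of empty vector P2 and Lef1 P2 and rested on 2 reads in Lef1 P5, so no fold is given.

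Ccnd1, cyclin D1, was at 3.79 FPKM (3.17 to 4.50) at passage 2 and 15.3 FPKM (14.01 to 16.6) at passage 5, with 14.7 FPKM in empty vector P2. Ccne1, cyclin E1, measured 43.8 FPKM (40.8 to 47.0) at passage 2, 119 FPKM (114 to 124) at passage 5 and 122 FPKM in empty vector P2. Both were low only in Lef1 P2 among the 3 libraries, by 4.03-fold and 2.71-fold against Lef1 P5. Ccnd1 shares 818 bases of exon with LTO1 on the opposite strand, and the sources used here do not say whether counting used strand. LTO1 itself was at 4.94 FPKM in Lef1 P2 and 5.59 FPKM in Lef1 P5.

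Lef1, the introduced gene, was at 135 FPKM (131 to 139; 3585 reads) at passage 2 and 214 FPKM (208 to 219; 5959 reads) at passage 5, against 1.49 FPKM in empty vector P2. The later library thus held 1.58 times the earlier level, and its log2 ratio of 0.66 lay under the threshold used for calling. A gene table cannot separate the reads of the introduced copy from those of the resident gene.

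The differences over the whole transcriptome were mostly downward. The ratio of a gene was log2 of (Lef1 P5 FPKM + 1) over (Lef1 P2 FPKM + 1), and a gene was called at 2-fold or more on this scale with at least 3 FPKM and 20 reads in the higher library. Of 10593 genes that met the level and read minimum, 199 were called higher at passage 5 (1.88%) and 727 lower (6.86%), in all 926 (8.74%). These shares are the background for each list below, and the lists were drawn up with earlier results of these data known. The scale understates the change of weakly expressed genes, and folds in the text are plain FPKM ratios. The median log2 ratio was 1.19 among the genes called higher and -1.25 among those called lower. Past 4-fold on the same scale there were 5 higher and 42 lower genes. Counting intervals of the 2 libraries did not overlap for any of the 199 higher genes and for 724 of the 727 lower genes. The 2-fold and 20-read rule largely builds this in, so it adds no support to the calls. The same share among all tested genes is not given here. Just inside the threshold lay Ddx58 (3.84 to 8.68 FPKM) and Rsph3b (14.86 to 6.93 FPKM), and just outside it B9d1 (14.92 to 30.81 FPKM) and Hebp1 (42.73 to 20.87 FPKM). In such pairs the first value is that of Lef1 P2.

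**Figure D1:**
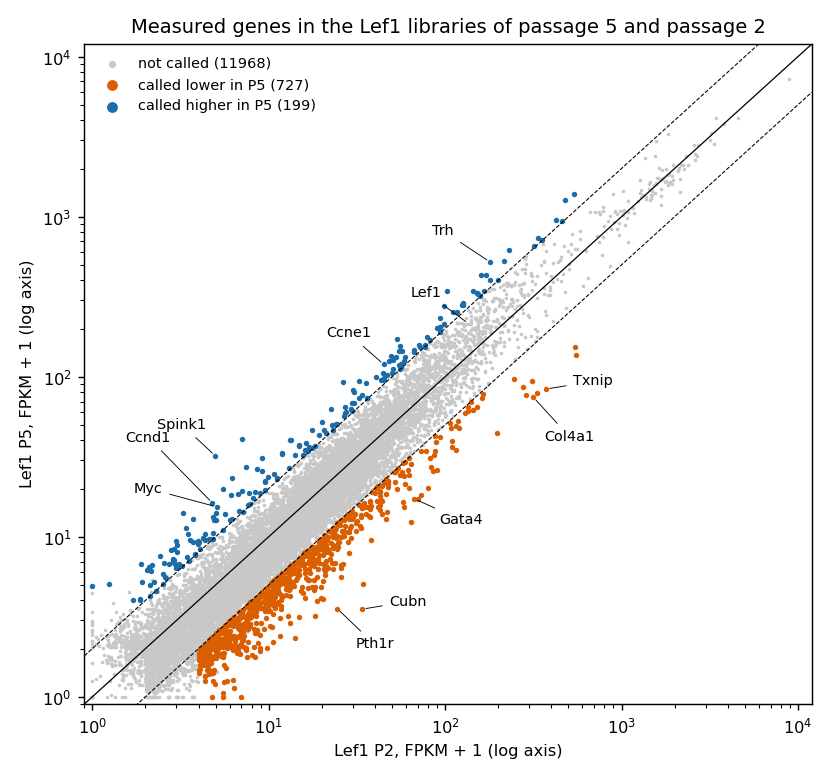
FPKM + 1 of each of 12894 measured genes in Lef1 P2 (horizontal, log axis) and Lef1 P5 (vertical, log axis), with the solid line at equal levels and the dashed lines at 2-fold. The 727 genes called lower lie under the lines and outnumber the 199 called higher, and Lef1 lies between the dashed lines.

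The balance between directions depended on how the libraries were scaled. Higher genes made up 21.5% of the calls from the FPKM as deposited, and 47.1% (395 higher, 443 lower) after median-of-ratios scaling, 47.8% (400 and 437) after TMM scaling (trimmed mean of M values) and 40.5% (272 and 400) after quantile scaling. These scalings moved the median log2 ratio of all measured genes, -0.17 as deposited, upward by 0.18, 0.19 and 0.17. All 199 higher genes were also called after median-of-ratios and TMM scaling, and 163 after quantile scaling. Of the lower genes, 443, 437 and 377 were also called. For this reason each list median is stated as its distance from the all-gene median. Of the 168 called genes named in the text or by its rule, 120 kept their call under all 3 scalings. Among those that lost it under 1 or more of them were the higher genes Trp53, Hspb1, Trim28, Cdk4, Ncl, Hspd1, Atp5g1 and Mt2, and the lower genes Gata6, Foxq1, Chac1, Fos, Jun, Maff, Plod2, Fgfr4, Msx2, Ephb2, Twist1, Bcl9l, Bmp2, Bmp7, Rb1, Sgce, Igf2r, Pycr1, Dnajc3, Edem1, Herpud1, Hk1, Egln1, G6pc3, Insig1, Neu1, Lamp2, Prnp, Runx1, Lrp1, Dnah8, Notch3, Nptxr, Dll1, Dsp, Hspg2, Psap, Rsph3b and Timp3. A further 12 names without a call gained one under 1 or more of the scalings.

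The libraries had similar depth, and fewer genes reached 3 FPKM in Lef1 P5 than in Lef1 P2. Expected counts summed to 9170554 in Lef1 P2 and 9380813 in Lef1 P5, so that 3 reads from a 1 kb transcript equal 0.327 and 0.320 FPKM, and 10416 and 9702 genes reached 3 FPKM. Between the Lef1 libraries Spearman's rank correlation was 0.955 over 12894 measured genes, which are no replicates of each other. Empty vector P2 had a value of 0.975 with Lef1 P5 and 0.948 with Lef1 P2. Calls moved with the level and base composition of the transcripts. With the tested genes in 5 equal groups by level, 15.3% were lower and 2.17% higher in the weakest group, and 2.45% lower and 3.87% higher in the strongest. The median log2 ratio ran from -0.38 in the weakest group to 0.14 in the strongest. The minimum applies to the higher library, so a gene with a mean under 3 FPKM is tested only if its 2 values differ. Part of the excess of calls in the weakest group is thus built in. With 5 groups by transcript GC content, the share called lower ran from 3.47% in the group with the least GC to 10.9% in that with the most. Median GC content was 53.9% in genes called lower, 51.3% in those called higher and 51.0% in all tested. Genes called higher were shorter, with a median length of 1905 bases against 2768 bases in all tested and 2683 bases in those called lower. The part of level, GC content and length in the calls and in the list medians was not tested.

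**Figure D2:**
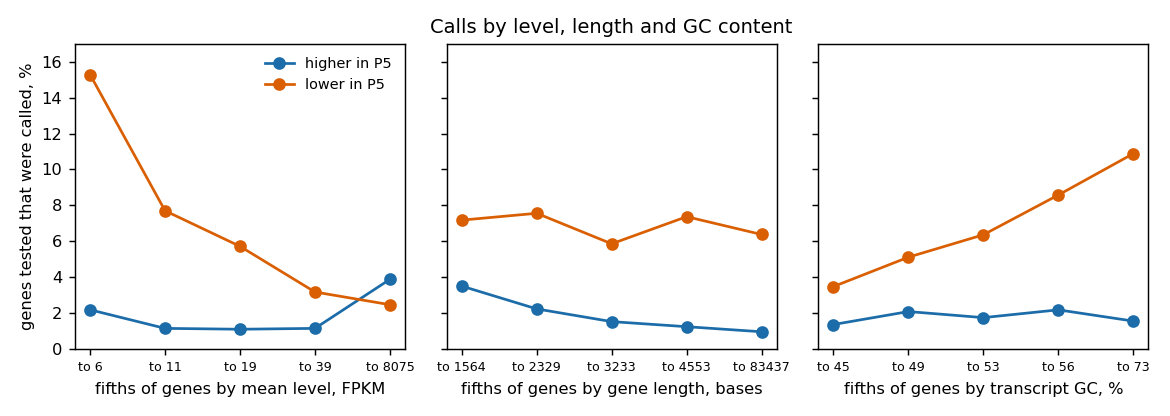
Percentage of tested genes called higher (blue) and lower (orange) in Lef1 P5 in 5 equal groups of genes by mean FPKM of the Lef1 libraries, by gene length in bases and by transcript GC content. The share called lower is 15.3% in the weakest group and 2.45% in the strongest, and the share called higher is 3.49% among the shortest genes and 0.944% among the longest. The minimum level applies to the higher library, which builds in part of the calls in the weakest group.

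Endoderm transcription factor genes were lower at passage 5, yet most stayed above the untreated level. Of 10 tested, 7 were called lower and 0 higher, with the median of the 13 measured members 0.91 below that of all genes. Gata4, a zinc-finger factor of primitive endoderm, measured 66.0 FPKM (63.2 to 68.9) at passage 2, 16.3 FPKM (14.9 to 17.7) at passage 5 and 2.82 FPKM in empty vector P2. Its level at passage 5 was 4.06-fold lower and still above that of empty vector P2. Gata6, which acts before Gata4 in the lineage, was at 46.3, 20.3 and 2.24 FPKM in the same order. Sox17, an HMG-box factor of endoderm, was at 20.1, 5.54 and 0.57 FPKM. All 3 thus had their highest level in Lef1 P2 and their lowest in empty vector P2. In bulk RNA, fewer cells of a type and less RNA per cell cannot be told apart.

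Foxa2, a pioneer factor of endoderm, had 6.13 FPKM in Lef1 P2 and 1.74 FPKM in Lef1 P5. Hnf4a, which controls apolipoprotein genes in visceral endoderm, was 7.71-fold lower at passage 5, at 4.55 and 0.59 FPKM, and its untreated level of 2.13 FPKM lay between them. Foxq1 was also called lower (25.8 and 11.7 FPKM). Sox7, a partner of Sox17 in this lineage, was at 7.65 and 4.17 FPKM and was not called, nor were Hhex (4.59 and 2.42 FPKM) and Sall4 (51.2 and 57.9 FPKM). With median-of-ratios scaling 5 of the list were called lower, and Gata6 (log2 ratio -0.94) and Foxq1 (-0.88) were no longer among them.

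**Figure D3:**
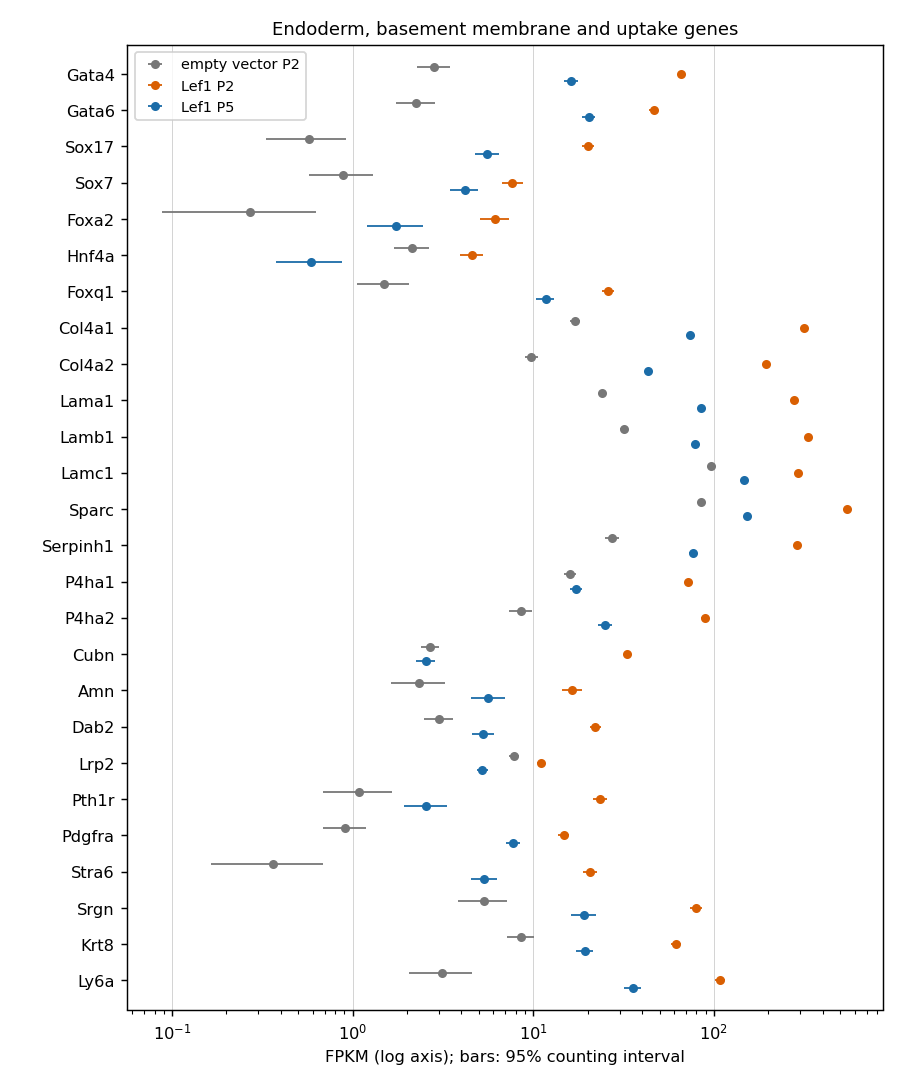
FPKM (log axis) of endoderm, basement membrane and uptake genes in empty vector P2 (grey), Lef1 P2 (orange) and Lef1 P5 (blue), with 1 library per colour and bars for the 95% counting interval. Lef1 P2 is the highest of the 3 for every gene drawn, and Cubn, Lrp2 and Hnf4a in Lef1 P5 lie at or below their grey points while Gata4, Gata6 and Col4a1 lie between the other points.

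Basement membrane genes were lower in part. Their 17 measured members summed to 2719 FPKM in Lef1 P2 and 1056 FPKM in Lef1 P5, beside 878 FPKM in empty vector P2. Of the 17, 8 were called lower and 0 higher, with a median 0.82 below that of all genes. The collagen IV chain genes Col4a1 (316 FPKM, 311 to 320, at passage 2 and 73.4 FPKM, 71.2 to 75.5, at passage 5) and Col4a2 (195 FPKM, 191 to 198, and 43.2 FPKM, 41.6 to 44.9) were 4.30-fold and 4.51-fold lower. In empty vector P2 they were at 17.04 and 9.73 FPKM, so Lef1 P5 lay between the other libraries.

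The laminin genes differed among themselves. Lamb1 was at 330 FPKM (325 to 335) at passage 2 and 78.7 FPKM (76.3 to 81.1) at passage 5, and Lama1 at 277 FPKM (274 to 281) and 85.2 FPKM (83.3 to 87.2). Lamc1, which supplies the third chain of laminin-111, was at 292 and 147 FPKM and missed the threshold with a log2 ratio of -0.98, though it was called lower with quantile scaling. Lamb2 (32.3 and 12.3 FPKM), the perlecan gene Hspg2 (163 and 77.1 FPKM) and Tinagl1 (9.59 and 2.80 FPKM) were called lower. Sparc, which encodes a collagen-binding matrix protein abundant in parietal endoderm, was at 545 and 153 FPKM, 3.56-fold lower. The nidogen genes Nid1 (52.9 and 35.1 FPKM) and Nid2 (155 and 81.4 FPKM), the fibronectin gene Fn1 (175 and 87.6 FPKM) and Col18a1 (45.6 and 71.1 FPKM) were not called.

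Enzymes and chaperones that act on collagen in the secretory pathway were also lower in part. Of 13 tested, 5 were called lower and 0 higher, with a median 0.65 below all genes. Serpinh1, the collagen chaperone Hsp47, was at 287 FPKM (280 to 295) at passage 2 and 76.3 FPKM (72.5 to 80.1) at passage 5. The prolyl 4-hydroxylase genes P4ha1 (72.2 and 17.3 FPKM, 4.19-fold) and P4ha2 (88.7 and 25.0 FPKM, 3.55-fold) and the lysyl hydroxylase genes Plod1 (34.95 and 14.4 FPKM) and Plod2 (87.9 and 38.2 FPKM) completed the called set. P4ha1 lay near its untreated level of 15.96 FPKM, while Serpinh1 and P4ha2 stayed above theirs, at 27.3 and 8.53 FPKM. P4hb, the shared beta subunit, was at 331 and 192 FPKM and was not called.

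Genes of visceral endoderm uptake followed Cubn in part. Amn, amnionless, which anchors cubilin in the membrane, was at 16.5 and 5.62 FPKM, and Dab2, an adaptor of this endocytic route, at 22.1 and 5.26 FPKM. Both were called lower, as was the cathepsin gene Ctsh (12.3 and 1.90 FPKM), which makes 4 of 11 tested. Lrp2, the megalin gene and partner of cubilin, was at 11.0 and 5.23 FPKM and was not called, nor was Apoe (862 and 490 FPKM), although quantile scaling called Apoe lower. The serum protein genes Afp and Ttr, which mark secretory visceral endoderm, had no row in either Lef1 table, nor had Fga and Fgb. The list's only higher gene was Spink1, a secreted trypsin inhibitor gene, at 3.96 FPKM (2.11 to 6.77; 13 reads) and 31.1 FPKM (25.5 to 37.6; 107 reads).

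Among parietal endoderm markers 4 of 10 tested were called lower and 1 higher. The lower ones were Pth1r, the serglycin gene Srgn (79.5 and 19.07 FPKM), the retinol transporter gene Stra6 (20.6 and 5.34 FPKM) and the small heat shock gene Cryab (19.2 and 5.76 FPKM). Srgn and Stra6 stayed above their untreated levels of 5.30 and 0.36 FPKM, whereas Cryab came below its 7.21 FPKM. Cryab shares 252 bases of exon with Hspb2 on the opposite strand, which was also called lower (8.93 and 2.59 FPKM). Pdgfra, the receptor that marks primitive endoderm, was at 14.7 and 7.70 FPKM and was not called. Vim, the intermediate filament gene vimentin, was 2.65-fold higher at passage 5, at 54.1 and 143 FPKM.

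Genes shared by simple epithelia and trophoblast were lower in part. The keratin genes Krt8 (61.3 and 19.2 FPKM), Krt18 (34.8 and 12.9 FPKM), Krt19 (25.8 and 9.08 FPKM) and Krt7 (7.01 and 0.83 FPKM) were all called lower, and Ly6a, the stem cell antigen gene Sca-1, was at 108 and 35.5 FPKM. Of 14 trophoblast genes tested 6 were lower and 1, the placental retrotransposon-derived gene Peg10 (43.9 and 95.1 FPKM), was higher. Esx1, a placental homeobox gene, was the sixth, at 4 and 0.75 FPKM. Elf5, Tpbpa, Prl3d1 and Prl2c2 had no row in either Lef1 table, and Cdx2 was at 1.05 and 0.20 FPKM. In the epithelial and adhesion list 8 of 23 tested were lower, the keratins included, such as the tight junction gene Cldn7 (23.9 and 8.22 FPKM) and the desmoplakin gene Dsp (5.38 and 2.02 FPKM). After median-of-ratios scaling 5 of these were called. The E-cadherin gene Cdh1 was at 78.9 and 80.5 FPKM.

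Matrix proteases and their inhibitors had 10 of 17 tested called lower, with 0 higher and a median 0.89 below all genes. They included the membrane protease gene Mmp15 (6.61 and 1.21 FPKM), the inhibitor genes Timp2 (5.67 and 0.95 FPKM) and Timp3 (6.13 and 2.18 FPKM), the serpin gene Serpine2 (41.7 and 14.8 FPKM) and the cystatin gene Cst3 (244 and 95.7 FPKM). Timp2 and Mmp15 lay close to their untreated levels of 0.97 and 1.61 FPKM, and Serpine2 below its 29.6 FPKM. With median-of-ratios scaling 5 of the 17 were called lower.

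Lysosomal genes were lower in 8 of 29 tested cases, with a median 0.50 below all genes. Hexa, a subunit of hexosaminidase, had 87.04 FPKM (82.6 to 91.7) at passage 2 and 33.1 FPKM (30.4 to 36.0) at passage 5, and Lgmn, the protease legumain, at 60.6 and 25.0 FPKM. The lysosomal membrane gene Lamp2 (32.9 and 14.2 FPKM), the sialidase gene Neu1 (13.8 and 5.24 FPKM) and the saposin precursor gene Psap (133 and 59.9 FPKM) were also called. Ctsl, Ctsb and Lamp1 were not, at 254 and 172, 52.6 and 32.9, and 282 and 177 FPKM. After median-of-ratios scaling 4 were called lower and 1, the lysosomal regulator gene Tfeb (16.7 and 31.8 FPKM), higher. Among endoplasmic reticulum chaperones and their regulators 3 of 25 were lower, Dnajc3 (22.5 and 9.69 FPKM), Edem1 (18.2 and 8.45 FPKM) and Herpud1 (18.7 and 8.73 FPKM), and 0 after median-of-ratios, TMM or quantile scaling. Hspa5, the chaperone BiP, was at 297 and 236 FPKM.

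In the list of glycolysis and the hypoxia response 5 of 35 were lower and 0 higher. Vegfa, the angiogenic factor gene, was at 42.9 FPKM (40.6 to 45.3) and 13.0 FPKM (11.7 to 14.3), next to 13.5 FPKM in empty vector P2. The others were P4ha1, the stress gene Ndrg1 (15.03 and 5.33 FPKM), the hexokinase gene Hk1 (36.6 and 15.5 FPKM) and the oxygen sensor gene Egln1 (19.3 and 8.37 FPKM). After median-of-ratios scaling 3 were called. Glycolytic enzyme genes at high levels were not called, among them Pgk1 at 1086 and 699 FPKM, Gpi1 at 324 and 166 FPKM and Ldha at 740 and 1074 FPKM.

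Stress and immediate-early genes were lower for a few members. Ddit3, the stress transcription factor CHOP, had 45.03 FPKM (40.4 to 50.1) at passage 2 and 11.9 FPKM (9.60 to 14.6) at passage 5, and Egr1, an early growth response factor, at 17.2 and 3.84 FPKM. Fos (5.43 and 2.02 FPKM), Jun (9.93 and 3.84 FPKM) and Maff (13.7 and 6.10 FPKM) were also called. Of 17 immediate-early genes this makes 4 lower, with Myc higher, and after median-of-ratios scaling Egr1 alone stayed called lower. In the integrated stress response list of 33 tested genes 4 were lower (Ddit3, Nupr1, Chac1 and Pycr1) and 2 higher, the amino acid transporter genes Slc7a3 (25.3 and 92.0 FPKM) and Slc7a11 (43.5 and 104 FPKM). Atf4, which drives this response, was at 163 and 152 FPKM.

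Germline and meiosis genes were lower in 8 of 19 tested cases and higher in 1, with a median 0.68 below all genes. Dazl, an RNA-binding germ cell gene, was at 13.8 FPKM (12.4 to 15.3) and 4.76 FPKM (3.97 to 5.66), below its untreated level of 7.70 FPKM. Mov10l1, a helicase of the piRNA pathway (7.53 and 1.52 FPKM), Taf7l (6.81 and 1.75 FPKM), the meiotic cohesin gene Smc1b (6 and 1.49 FPKM) and Stag3 (30.4 and 11.2 FPKM) were lower as well. Zp3, an egg coat gene, was higher (1.56 and 5.82 FPKM, 18 and 69 reads).

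**Figure D4:**
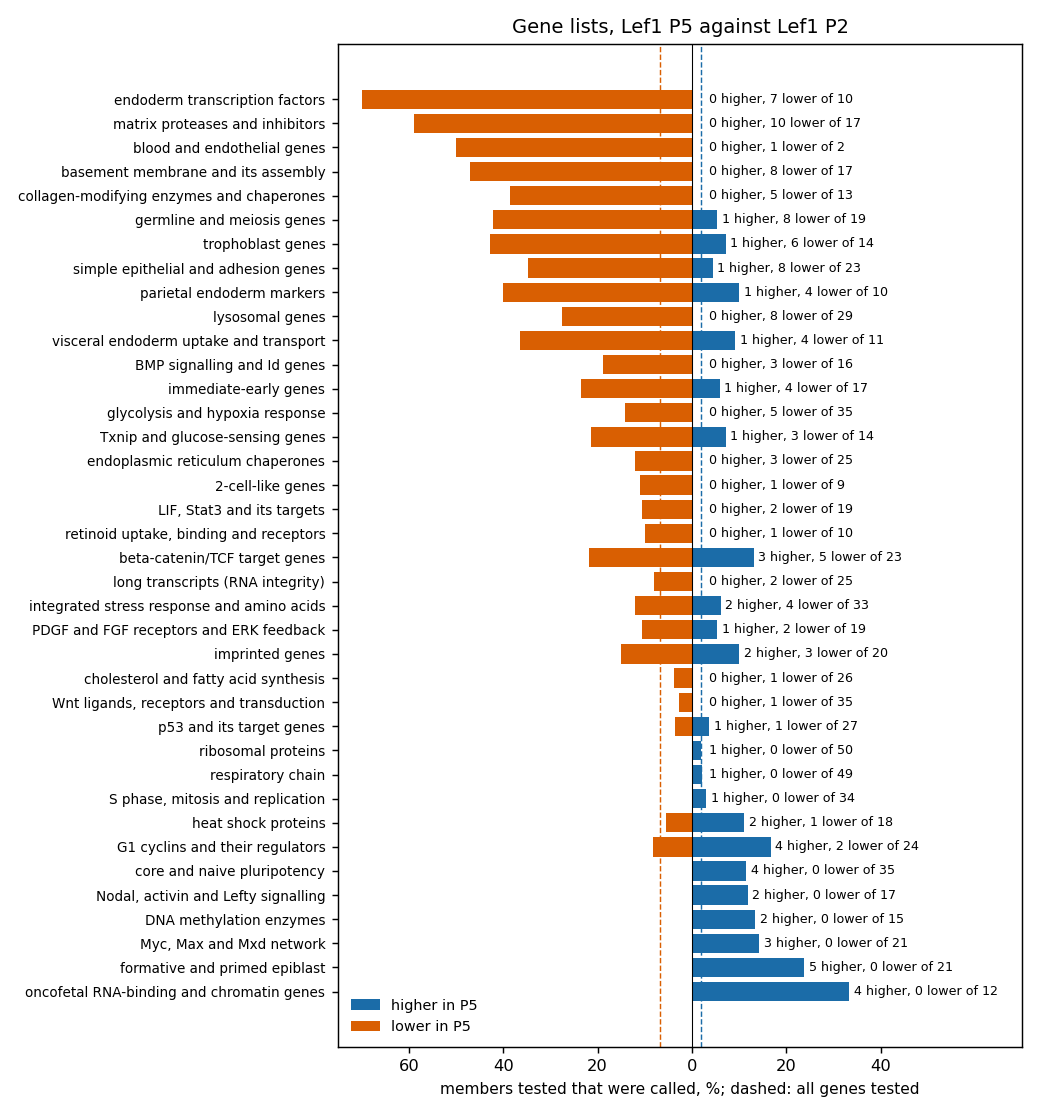
Percentage of the tested members of each gene list called lower (orange, to the left) and higher (blue, to the right) in Lef1 P5, with dashed lines at the shares of all tested genes, 6.86% lower and 1.88% higher, and the counts beside each bar. Endoderm transcription factors (7 of 10) and matrix proteases (10 of 17) have the longest bars to the left and the oncofetal genes (4 of 12) the longest to the right.

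Some genes of entry into S phase were higher at passage 5, and cyclin D2 was lower. Of 24 G1 genes tested 4 were called higher, Ccnd1, Ccne1, Cdk4 (150 FPKM, 143 to 157, at passage 2 and 332 FPKM, 322 to 343, at passage 5) and Cdk6 (3.85 and 9.52 FPKM), the kinases that cyclin D binds. Ccnd2, cyclin D2, was 6.38-fold lower, at 5.68 FPKM (5.05 to 6.36) and 0.89 FPKM (0.656 to 1.18), near its untreated 0.49 FPKM. The retinoblastoma gene Rb1, a brake on S phase entry, was at 11.9 and 4.57 FPKM and was lower too, though not after every scaling. It shares 105 bases of exon with Rcbtb2 on the opposite strand, at 5.13 and 6.43 FPKM. The inhibitor gene Cdkn1a (65.8 and 33.5 FPKM) missed the threshold, with a log2 ratio of -0.95, and Ccnd3 was at 156 and 234 FPKM. Cdk4 shares 641 bases of exon with Tspan31 on the opposite strand, which was at 48.6 and 35.8 FPKM.

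Genes of DNA replication had few calls. In the list of S phase and mitosis, all 34 members were tested and the median lay 0.62 above that of all genes, and the thymidylate synthase gene Tyms (22.2 and 45.4 FPKM; not whole counts) was its only call. Pcna, the replication clamp, was at 173 and 343 FPKM, the helicase subunit gene Mcm2 at 77.5 and 148 FPKM and the ribonucleotide reductase gene Rrm2 at 79.1 and 133 FPKM. Of its mitotic genes, Ccnb2 was at 151 and 96.4 FPKM and Bub1 at 52.01 and 32.9 FPKM, without a call. After median-of-ratios scaling 6 of the list were called higher. With quantile scaling 2 were, and the list median lay 0.37 above that of all genes.

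Myc, the growth transcription factor, was at 4.10 FPKM (3.29 to 5.05) at passage 2 and 14.4 FPKM (12.8 to 16.02) at passage 5, beside 15.4 FPKM in empty vector P2, which is 3.50-fold higher at passage 5. Odc1, the polyamine enzyme and a Myc target, was at 170.3 and 430 FPKM, and Ncl, the nucleolar protein nucleolin, at 144 and 341 FPKM. These 3 were the higher calls of the 21 genes of the Myc network, and 0 were lower. Mycn (39.7 and 37.5 FPKM) and Max (29.7 and 40.6 FPKM) were not called. Trp53 was at 93.1 FPKM (88.4 to 97.9) and 203 FPKM (196 to 210), with 190.0 FPKM in empty vector P2. Of its target genes 0 were called higher and Apaf1 was called lower (22.3 and 8.94 FPKM), and the median of the list lay 0.26 below all genes. Trp53 was no longer called with quantile scaling, at a log2 ratio of 0.90.

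Pluripotency genes were high in both libraries. Pou5f1 was at 704 and 1062 FPKM, Sox2 at 192 and 205 FPKM and Nanog at 167 and 176 FPKM in Lef1 P2 and Lef1 P5, and none of the 3 was called. Of 35 tested, 4 were called higher and 0 lower, with a median 0.34 above all genes, and 0.18 above with quantile scaling. The strongest of the 5 groups by level, over all tested genes, had a median log2 ratio of 0.14. Gdf3, a TGF-beta family ligand gene, was at 8.19 FPKM (6.95 to 9.59; not whole counts) and 29.8 FPKM (27.5 to 32.4), 3.64-fold higher. The nuclear receptor gene Nr0b1 (31.4 and 72.3 FPKM), Dppa2 (19.5 and 45.3 FPKM) and the corepressor gene Trim28 (354 and 716 FPKM) made up the rest. The naive factor genes Tbx3 (77.6 and 48.9 FPKM) and Klf4 (65.7 and 48.2 FPKM) were not called.

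Formative epiblast genes had 5 higher calls and 0 lower among 21 tested, with a median 0.57 above all genes. Dnmt3b, a de novo DNA methyltransferase, was at 65.6 FPKM (63.0 to 68.2) at passage 2 and 145 FPKM (142 to 149) at passage 5, above the 89.0 FPKM of empty vector P2. Lefty1, a Nodal antagonist gene, was at 6.09 and 18.37 FPKM, with counts that were not whole. Slc7a3, Myc and the epithelial factor gene Grhl2 (3.25 and 8.86 FPKM) completed the set. Otx2 (20.2 and 23.8 FPKM), Dnmt3a (13.03 and 16.6 FPKM) and Nodal (11.1 and 16.2 FPKM) were not called, and Fgf5 was at 0.05 and 0.04 FPKM. In the list of DNA methylation enzymes the calls were Dnmt3b and Trim28 of 15.

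Oncofetal genes, which are active in embryos and growing cells, had 4 of 12 tested called higher and 0 lower, with a median 0.70 above all genes. Hmga2, a chromatin protein gene, was 2.18-fold higher, with 28.4 FPKM (26.7 to 30.1) at passage 2, 61.9 FPKM (59.5 to 64.4) at passage 5 and 9.86 FPKM in empty vector P2. Its level was thus lowest in empty vector P2 and highest in Lef1 P5. Lin28b, a blocker of let-7 microRNAs, was at 2.03 and 7.04 FPKM with 6.60 FPKM untreated, so only Lef1 P2 was low among the 3. Lin28a (68.9 and 90.9 FPKM) and Igf2bp1 (33.03 and 52.5 FPKM) were not called. Among 20 imprinted genes Snrpn (29.1 and 81.8 FPKM; not whole counts) and Peg10 were higher, and Igf2r (51.9 and 24.6 FPKM), Sgce (6.87 and 2.76 FPKM) and Slc22a18 (6.07 and 1.24 FPKM) lower. H19 (15.1 and 11.3 FPKM) and Igf2 (15.9 and 13.01 FPKM) were not called.

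Wnt target genes were called in both directions. Of 23 tested beta-catenin/TCF targets 3 were called higher and 5 lower, and the median lay 0.01 below that of all genes. Higher were Ccnd1, Myc and Notum, a secreted Wnt inhibitor gene at 1.73 FPKM (1.18 to 2.46) at passage 2, 5.74 FPKM (4.70 to 6.94) at passage 5 and 6.57 FPKM in empty vector P2. Lower were Vegfa, the ephrin receptor genes Ephb3 (41.9 and 16.95 FPKM) and Ephb2 (13.3 and 5.89 FPKM), Msx2 (3.81 and 1.26 FPKM) and Twist1 (4.01 and 1.45 FPKM). After median-of-ratios scaling 3 were higher and 2 lower. Axin2, the feedback inhibitor, was not called, with 5.89 FPKM (5.15 to 6.71) at passage 2, 8.01 FPKM (7.15 to 8.94) at passage 5 and 2.77 FPKM untreated. T (0.33 and 0.27 FPKM), Sp5 (0.21 and 0.52 FPKM) and Cdx1 (0.84 and 1.44 FPKM) were at low levels in both libraries.

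The machinery of the pathway had few calls. Of 35 tested Wnt ligands, receptors and transducers Bcl9l, a coactivator of beta-catenin, was the single call (7.82 and 3.12 FPKM, lower). After median-of-ratios and TMM scaling that call was gone and the corepressor gene Tle4 (17.2 and 32.7 FPKM) was called higher. Ctnnb1, the beta-catenin gene, was at 273 and 325 FPKM, and the related factors Tcf7 (22.03 and 17.7 FPKM) and Tcf7l1 (17.8 and 25.3 FPKM) were not called. In BMP signalling 3 of 16 were lower, Bmp2 (3.05 and 0.48 FPKM), Bmp7 (6.70 and 2.41 FPKM) and Msx2, and 1 after median-of-ratios scaling. Nodal signalling had Gdf3 and Lefty1 higher of 17, both with counts that were not whole, and 0 higher with whole counts only. Lefty2 (38.6 and 63.5 FPKM; not whole counts) was not called. Among LIF and Stat3 targets Socs1 (10.2 and 3.54 FPKM) and Fos were lower of 19, with 1 called after each of the 3 scalings.

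The CTTTGA letters, read on both strands, were in 19.3% of the promoter windows of genes called higher (37 of 192) and in 11.1% of those of genes called lower (87 of 782). They were in 11.5% of the windows of all tested genes (1262 of 10938) and in 16.0% of all 32851 windows in the table. The GATA letters AGATAA were in 9.38%, 6.91%, 5.84% and 11.2% of the same sets. These are counts of letters in windows of 300 bases and show no binding.

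**Figure D5:**
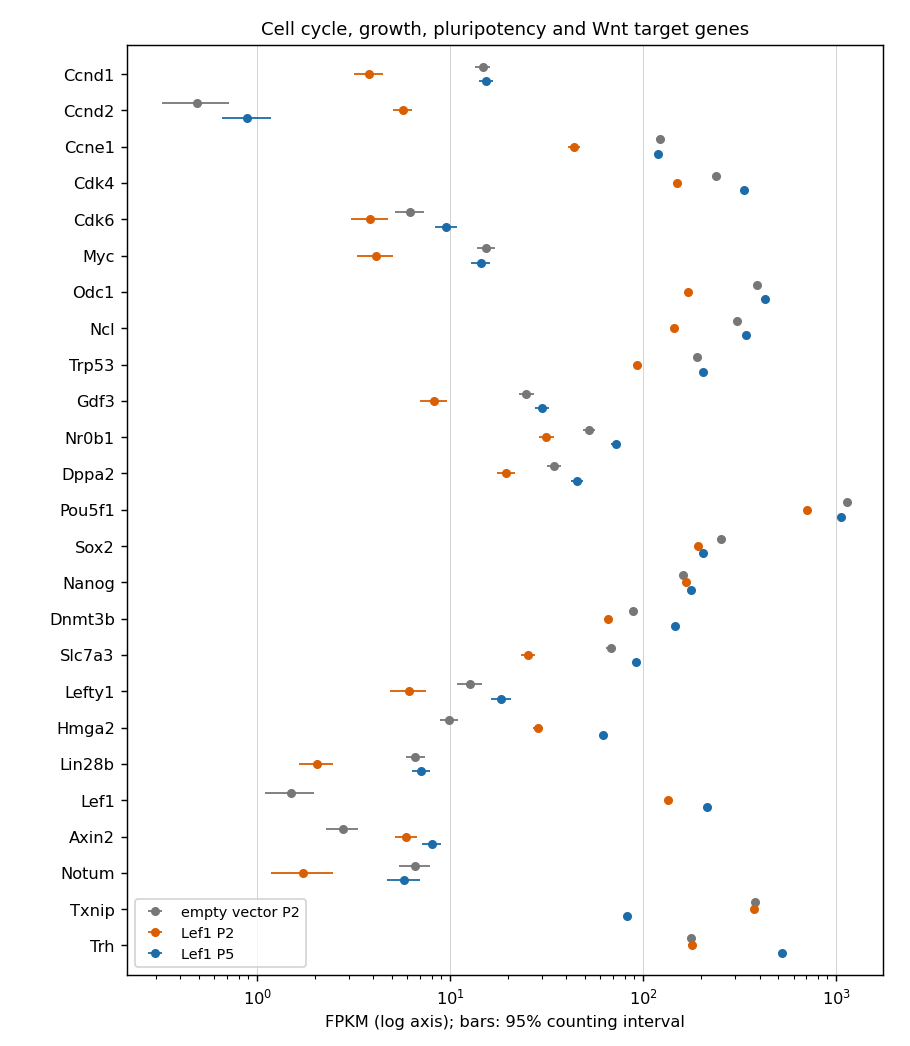
FPKM (log axis) of cell cycle, growth, pluripotency and Wnt target genes in empty vector P2 (grey), Lef1 P2 (orange) and Lef1 P5 (blue), with 1 library per colour and bars for the 95% counting interval. Ccnd1, Ccne1, Myc and Notum are low in Lef1 P2 alone, Lef1 and Hmga2 are highest in Lef1 P5, and Txnip is low and Trh high in Lef1 P5 alone.

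Other genes with large ratios fell outside these groups. The lowest ratios after Cubn were those of Npcd, Pth1r, Fam114a1 (33.3 and 4.04 FPKM), B4galnt2, a glycosyltransferase gene (13.1 and 1.34 FPKM; not whole counts), and Pygl, liver glycogen phosphorylase (17.4 and 2.19 FPKM). Also among the 15 lowest were Atp12a, a proton pump gene (5.37 and 0.14 FPKM, 192 and 5 reads), Grina (62.8 and 11.4 FPKM), Adssl1 (19.3 and 3.10 FPKM), the chemokine gene Cxcl14 (9.64 and 1.19 FPKM) and Mlycd, malonyl-CoA decarboxylase (8.81 and 1.03 FPKM). Npcd was at 5.97 FPKM in Lef1 P2 and not listed in Lef1 P5, which is 86.4-fold lower if 3 reads are set there. Its counts were not whole, and its exons overlap those of Nptxr and Cbx6 on the same strand. The fatty acid binding gene Fabp3 was at 549 and 135 FPKM and the malic enzyme gene Me1 at 57.6 and 14.4 FPKM.

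The highest ratios after Spink1 were those of Arhgdib (6.06 FPKM, 4.65 to 7.77, and 40.1 FPKM, 36.4 to 44.1), Sap25, Enox1 (2.27 and 13.02 FPKM), Apol6 (0.24 and 4.07 FPKM) and Eprn (5.17 and 22.2 FPKM). The proteasome subunit gene Psmb10 (2.71 and 11.8 FPKM) and Akr1b3, aldose reductase (101 and 340 FPKM; not whole counts), were also among them. Sap25, absent from the Lef1 P2 table, was at 3.90 FPKM in Lef1 P5, on 37.5 reads. That is 12.9-fold higher if 3 reads are set for Lef1 P2. Exons of Sap25 share 380 bases with those of Gm20605 on the same strand. Gm14308 was called higher, with 184.9 and 795.6 reads, while the near-identical Gm14434 had 184.7 and 2.42 reads and Gm4724 had 184.7 reads in Lef1 P2 and no row for Lef1 P5. Their counts were not whole, so their ratios are uncertain. At high levels the tubulin gene Tuba1b (479 and 1270 FPKM; not whole counts), the chromatin chaperone gene Set (229 and 620 FPKM), the arginine methyltransferase gene Prmt1 (98.2 and 276 FPKM) and the actin-binding gene Tmsb4x (158 and 429 FPKM) were higher. The heat shock genes Hspb1 (334 and 734 FPKM) and Hspd1 (215 and 527 FPKM) were higher of 18 tested and lost that call with quantile scaling.

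Markers of other cells that a culture could hold were mostly under 1 FPKM. Of 22 fibroblast and feeder genes 14 were under 1 FPKM in both, with Fap, Lum, Postn and Prrx1 in no row and Col1a1 at 0.87 and 0.41 FPKM. Its highest member was Ccn1 at 27.3 and 15.4 FPKM, and 0 of 5 tested were called. Summed over the 9 measured members the list was at 57.7 FPKM in Lef1 P2, 35.7 FPKM in Lef1 P5 and 39.99 FPKM in empty vector P2. Of 18 blood and endothelial genes 14 were under 1 FPKM in both, Ptprc had no row, Pecam1 was at 19.2 and 18.6 FPKM and Runx1 was called lower (7 and 2.59 FPKM). Of 27 neural genes 16 were under 1 FPKM in both, among them Sox1 (0.88 and 0.43 FPKM) and Pax6 (0.13 and 0.08 FPKM), and 0 of 8 tested were called. Stmn2 was at 132 and 166 FPKM, with 189.9 FPKM in empty vector P2, Tubb3 at 13.2 and 20.6 FPKM and Sox4 at 5.66 and 10.4 FPKM. The neural list summed to 180.1 FPKM in Lef1 P2, 224 FPKM in Lef1 P5 and 279 FPKM in empty vector P2. Mesoderm and streak genes had 0 of 2 called and 19 of 24 under 1 FPKM in both, with Bmp4 at 29.3 and 30.1 FPKM. Ribosomal protein genes (1 of 50 higher, Rpl30) and respiratory chain genes (1 of 49 higher, Atp5g1) had medians 0.16 and 0.39 above all genes, and with quantile scaling -0.06 and 0.05. Of 25 long transcripts, read as a sign of RNA integrity, 2 were lower and 0 higher, with a median 0.15 below all genes.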

How the data were processed

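RNA-seq was done on total RNA of 3 cultures with 1 library each, and samples were grouped by the labels. The authors deposited expected counts per gene, which were not whole in 8.49% to 8.61% of the listed genes, and FPKM values, scaled by gene length and library size per the file headers. Bowtie 0.12.2 and the mm8 build are named in the submitters' processing notes, and the sources used here give neither the counting program nor its use of strand. Genes absent from a table were set to 0, and to the level of 3 reads only where a fold is printed for them. Entrez numbers gave symbols through RefSeq (GRCm38.p6) for 17951 of 17997 genes, and promoter windows carry coordinates of that build, not of mm8.

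Ratios were log2((FPKM + 1)/(FPKM + 1)) of the deposited values, with calls and intervals as given in the report. The calling rule was run on simulated counts that held counting error only, with large changes in well-expressed genes. That run does not cover calls near the threshold or the difference between cultures. Genes reaching 1 FPKM in any library counted as measured. The comparison, its 4 marker genes and the 42 gene lists were chosen with earlier results of these data known. Named genes were a fixed set, the called genes with the 15 highest and 15 lowest ratios, up to 5 called members of each list in each direction and the first 2 measured members of lists without calls, and other names were chosen after their values were seen. Exon overlaps of at least 100 bases were found for 21 of 259 named genes. The 13 alternatives were median-of-ratios, TMM and quantile scaling, CPM, pseudocounts of 0.1 and 5, minimum levels of 1, 10 and none, thresholds of 1.5 and 4, non-overlapping intervals, and whole counts only. Python 3.11.15, pandas 2.3.3, scipy 1.17.1 and edgeR 4.0.16 in R 4.3.3 were used.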

Additional observations from a re-analysis of the deposited data

How the results depend on the processing

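No paired analysis was possible because each group has 1 library, and no replicate could be left out. Counts of higher and lower genes were 199 and 727 as deposited. They came to 395 and 443 with median-of-ratios scaling, 400 and 437 after TMM, and 272 and 400 after quantile scaling. With CPM there were 1275 lower genes, with a pseudocount of 5 FPKM 101 and 180, with a minimum of 10 FPKM 358 lower, with a threshold of 1.5-fold 845 and 2116, and with 4-fold 5 and 42. All counts not given here were within 1.5 times those as deposited. No sign of a called named gene reversed, and the cause of the differences between settings was not tested. The 1.5-fold threshold adds calls, and the minimum of 10 FPKM and the 4-fold threshold remove them, by construction. The log2 ratios of named genes moved by less than their counting intervals allow in 1088 of the comparisons with an alternative and by more in 466. List medians moved by less than 0.1 in 497 and by more in 49. Minimum levels, fold thresholds and the interval rule cannot move a list median, so their comparisons are among the 497 by construction. At this depth 3 reads on a 1 kb transcript equal 0.327 and 0.320 FPKM. The level that 3 reads equal falls with transcript length, and values near it rest on few reads.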

Other observations

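A set of genes stood apart in Lef1 P5 while empty vector P2 and Lef1 P2 were at similar levels. These were picked by their values and are given as a description. Txnip, an inhibitor of thioredoxin that answers to glucose, was at 380 FPKM in empty vector P2, 373 FPKM in Lef1 P2 (365 to 381) and 82.8 FPKM in Lef1 P5 (79.3 to 86.4), 4.51-fold lower at passage 5. Gm15441, which shares 441 bases of exon with Txnip on the opposite strand, was at 73.2, 68.8 and 16.3 FPKM. Since it is not known whether counting used strand, these cannot be taken as separate measurements. Arrdc4, a relative of Txnip in the glucose response, was at 50.2, 81.2 and 30.1 FPKM and was called lower, while Arrdc3 was at 8.24, 8.70 and 9.36 FPKM and was not. Of the 14 genes in the list of Txnip and glucose sensing 3 were lower and 1, G6pdx of the pentose phosphate pathway (39.2, 23.2 and 49.7 FPKM), was higher.

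Further genes of this kind were lower in Lef1 P5. The receptor gene Notch3 was at 17 FPKM in empty vector P2, 19.9 FPKM in Lef1 P2 and 9.25 FPKM in Lef1 P5, and the Notch ligand gene Dll1 at 3.45, 3.57 and 1.10 FPKM. The calcium pump gene Atp2a3 was at 12.3, 10.8 and 3.33 FPKM, and the meiotic cohesin gene Stag3 at 28.2, 30.4 and 11.2 FPKM. Higher in Lef1 P5 alone was Trh, the gene of thyrotropin-releasing hormone, at 176, 178 and 521 FPKM (508 to 534). The metallothionein gene Mt2 was at 181, 153 and 328 FPKM, the glutaredoxin gene Glrx at 16.5, 15.3 and 37.4 FPKM and Fgfbp1, which carries FGFs in the matrix, at 3.14, 3.84 and 12.2 FPKM. Passage and construct cannot be told apart for these genes.

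Further genes highest in Lef1 P2 were chosen after their values were seen. Enpep, a membrane aminopeptidase gene, was at 0.05 FPKM in empty vector P2, 3.83 FPKM in Lef1 P2 and 0.26 FPKM in Lef1 P5, and Clic5, a protein of microvilli, at 0.15, 7.87 and 0.93 FPKM. App, the amyloid precursor gene, was at 8.21, 56.4 and 15.5 FPKM. All 3 were called lower at passage 5.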
